A study of Mus musculus with 9 samples.

Results

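The early response of 3T3-L1 cells to adipogenic induction was described from the array of the control culture on day 2 of differentiation and the array of the day 0 culture, 2 of the 9 arrays of the series. 3T3-L1 is a mouse fibroblast-like line committed to the fat lineage, kept here as confluent preadipocytes in calf serum (10%) until day 0. Induction lasted 2 days, in DMEM with FBS (10%) that held insulin at 5 µg/ml, dexamethasone at 10 µM and methylisobutylxanthine at 0.5 mM, without the chickpea extract given to 4 other cultures of the series. Gentamicin sulfate (0.5 µg/ml) was in the growth medium and in the medium after induction. The day 2 culture was taken at the end of this treatment, while the cultures of days 4, 6 and 8 were then kept in FBS with insulin and without the other inducers. The serum differs too between day 0 and the later days, so its part and that of the inducers cannot be told apart. All 321 metabolic syndrome genes of the array were followed. There was 1 array per day, so no difference has a test or a replicate check. A true change and the error of the day 2 array cannot be told apart.

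The inducers act through separate routes. Methylisobutylxanthine blocks phosphodiesterases and raises cyclic AMP, which activates CREB; dexamethasone activates the glucocorticoid receptor; insulin at a high dose acts through the insulin and IGF-1 receptors. CREB and the glucocorticoid receptor are known to switch on Cebpb and Cebpd, whose proteins then help to switch on Pparg and Cebpa, the pair that drives the adipocyte genes. Growth-arrested 3T3-L1 cells also divide again before they differentiate, a phase called mitotic clonal expansion.

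Spot intensity is given in scanner units after background subtraction, and levels as log2 of the deposited intensity after quantile normalization over the 9 arrays. A gene was measured on an array if its spot exceeded 10 units and its level exceeded the floor of 3.39, the value at which lower levels were set. Against the floor a difference is a bound, written "at least". On day 0, 204 of the 321 genes had more than 10 units and on day 2, 200, with median spot intensities of 57 and 47 units. Of the 41 empty or negative control spots per array, none exceeded 10 units on either array, the highest being 6 and 8. Replicate spots of the 8 control probes with 3 or 4 spots had a median SD of 0.10 log2 units on day 0 and 0.07 on day 2, which covers spot error within an array only. The ratio of the 3′ to the 5′ Gapdh probe, a sign of RNA integrity, was 1.04 on day 0 and 1.03 on day 2. Gapdh itself was 1.31 log2 units higher on day 2 (1.05 with median scaling, 0.64 with control gene scaling), and the deposited values are scaled to it. The median difference of the genes measured on both arrays was -1.21 on the deposited scale, -0.61 with control gene scaling and -0.06 with quantile normalization, so directions given here are relative to the middle of the array. In bulk RNA, fewer cells of a type and less RNA per cell cannot be told apart.

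Of the 321 genes, 188 were measured on both arrays, 10 on day 2 only, 12 on day 0 only and 111 on neither. Among the 210 genes measured on at least 1 array, 35 were at least 2-fold higher on day 2 (16.7%) and 35 at least 2-fold lower (16.7%). Measured on both arrays were 25 of the higher genes (13.3% of 188) and 32 of the lower ones (17.0%). The split moved to 26 higher and 70 lower when arrays were scaled to the control genes, to 15 and 119 in the deposited table as it stands and to 27 and 71 in unscaled intensity. Under all 8 scalings compared, 15 genes were at least 2-fold higher and 25 at least 2-fold lower. Just inside the threshold lay Cap1 and Dlk1 at -1.03 and Ppp1r10 at 1.03, and just outside it G6pdx and Eif2b1 at 0.98 and Dvl2 at -0.98. The 2 sets of spots on each array gave like counts, 19 higher and 20 lower of 99 genes in set A and 16 and 15 of 111 in set B.

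**Figure D1:**
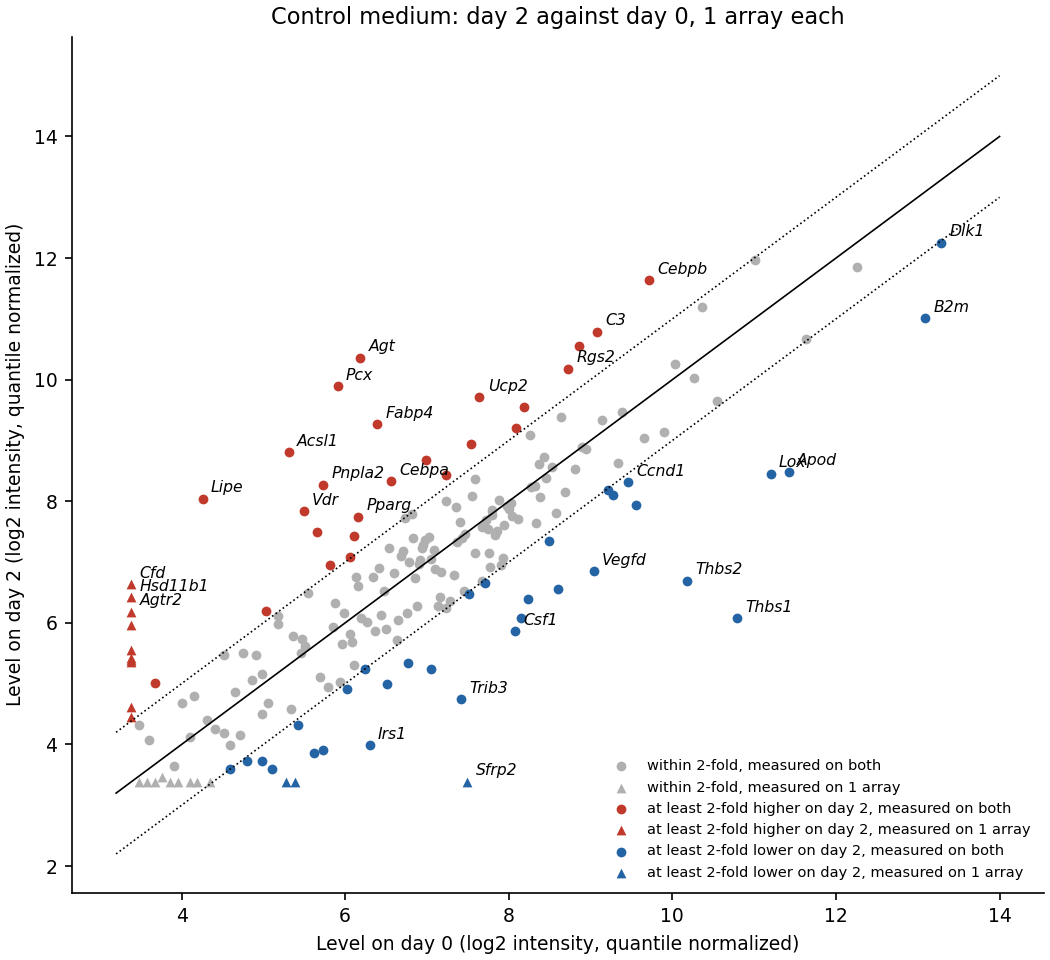
Level of each gene on day 0 (horizontal axis) and day 2 (vertical axis) in control medium, log2 intensity after quantile normalization, with 1 array per day. Circles are genes measured on both arrays, triangles genes measured on 1 array, the solid line marks equal levels and the dotted lines a 2-fold difference. Agt, Pcx, Lipe and Acsl1 lie farthest above the line and Thbs1, Sfrp2 and Thbs2 farthest below it.

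Among the genes known to answer glucocorticoids, Agt, the angiotensinogen gene, showed the largest increase of any gene measured on both arrays. Its intensity was 115 units on day 0 and 1521 on day 2, a log2 difference of 4.18 or 18.1-fold. Its level was 6.18 on day 0, 10.36 on days 2 and 4, 9.90 on day 6 and 8.68 on day 8, so it stayed at least 2-fold above day 0 after dexamethasone was withdrawn, as it did under each of 7 scalings. The order of the induced days depended on the scaling, with day 2 minus the later mean between -1.07 and 0.77. Hsd11b1, the enzyme that regenerates active glucocorticoid inside the cell, was at the floor on day 0 and at 6.43 on day 2, at least 8.22-fold higher, and reached 8.38 on day 8. The glucocorticoid receptor gene Nr3c1 ran the other way. It measured 209 units on day 0 and 54 on day 2, 2.70-fold lower, and its level went from 6.77 and 5.34 on those days to 6.24, 6.73 and 7.04 on days 4, 6 and 8, so it was within 2-fold of day 0 on each day after the steroid had been removed, in 5 of 7 scalings.

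Other members of the glucocorticoid list with higher levels on day 2 were Dusp1, the phosphatase that switches off MAP kinases, at 1.33, Irs2, an insulin receptor substrate, 2.31-fold, and Angptl4, an inhibitor of lipoprotein lipase, at 1.12. Dusp1 and Angptl4 depended on the scaling: on the deposited values they were at -0.083 and -0.34. In all 5 of the 12 compared members were at least 2-fold higher and 2 lower, against 16.7% of all 210 compared genes in each direction. Of the 5, Agt and Hsd11b1 were higher in all 8 scalings, Irs2 in 5, Dusp1 in 4 and Angptl4 in 2. Hsd11b1, not measured on day 0, could be called higher only. The 2 lower members were lower in all 8 scalings. The list median was 0.52, and 0.39 for members measured on both arrays, against -0.06 over all compared genes. Beside Nr3c1 the lower member was Apod, apolipoprotein D, at -2.94. Within 2-fold stayed Cebpd at 0.65, Pik3r1 at 0.39, Nfkbia at 0.15 and Pdk4 at -0.76. Klf15 was measured on neither array.

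Of the 7 compared genes on the cyclic AMP list, 2 were at least 2-fold higher, Cebpb and Rgs2, and 1 was lower, Ppargc1a. Over all 210 compared genes the share was 16.7% in each direction. The list median was -0.09, but 0.34 for the 6 genes measured on both arrays, so its sign rested on Ppargc1a. That gene, not measured on day 2, could be called lower only. Cebpb, the early C/EBP transcription factor, measured 1227 units on day 0 and 2830 on day 2, 3.78-fold higher. Its level was 9.71 on day 0, 11.63 on day 2 and 9.56, 9.21 and 9.27 on days 4, 6 and 8, so day 2 was the 1 control day past 2-fold, in 5 of 7 scalings. Rgs2, a brake on G protein signalling, was at 780 and 1830 units and 2.74-fold higher, with levels of 8.73, 10.18, 9.14, 8.90 and 8.33 on days 0, 2, 4, 6 and 8. Ppargc1a, a coactivator of mitochondrial genes, was at 73 units on day 0 and 9 on day 2, at least 4.00-fold lower. Creb1, the gene of CREB itself, was at -0.84, Jun at -0.09, the protein kinase A subunit gene Prkaca at -0.28 and Vegfa at 0.77.

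The promoters of Cebpb and Dusp1 are shown as examples. On this scale both genes were at least 2-fold above day 0 on day 2 alone, and both hold letters of the CREB site. Adipor2, Pip, Rgs2 and Ucp2 fit that description too and are not shown. For Dusp1 the day 2 call was present in 4 of 8 scalings and its course in 3 of 7. In units Dusp1 was at 111, 171, 227, 150 and 98 on days 0, 2, 4, 6 and 8. The sequences are RefSeq promoters of the build GRCm38.p6, from 250 bases before to 50 after the start site, 5′ to 3′ on the gene's strand. In Cebpb, capitals mark the core TGACG on either strand. In Dusp1, capitals mark the full site TGACGTCA alone, which contains the core on both strands.
Cebpb, chr2:167688665-167688964, + strand: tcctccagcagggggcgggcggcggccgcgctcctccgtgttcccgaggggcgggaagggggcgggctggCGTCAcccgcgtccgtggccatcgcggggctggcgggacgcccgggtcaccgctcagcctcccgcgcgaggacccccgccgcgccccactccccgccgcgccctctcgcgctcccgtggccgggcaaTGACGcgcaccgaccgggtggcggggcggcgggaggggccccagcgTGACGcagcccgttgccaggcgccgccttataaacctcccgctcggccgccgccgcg
Dusp1, chr17:26508423-26508722, - strand: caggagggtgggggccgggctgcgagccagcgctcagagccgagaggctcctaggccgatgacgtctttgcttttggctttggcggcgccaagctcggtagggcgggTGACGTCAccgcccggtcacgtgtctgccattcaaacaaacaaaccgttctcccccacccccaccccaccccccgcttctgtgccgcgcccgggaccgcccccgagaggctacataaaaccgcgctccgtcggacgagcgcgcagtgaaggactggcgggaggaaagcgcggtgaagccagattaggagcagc
Promoters were found for 233 of the 321 genes, 28 of the 35 higher and 23 of the 35 lower. The full site TGACGTCA was in 1.79% of all 32851 promoters of this length and in 1 of the 28 higher genes, Dusp1. The core TGACG was in 20.8% of all promoters, in 6 of the 28 higher genes (Adipor2, Cebpb, Dusp1, Pip, Rgs2 and Ucp2) and in 9 of the 23 lower ones, against 75 of the 233 genes of the array with a promoter. The palindromic glucocorticoid response element was in 0.475% of all promoters, in none of the 28 and in none of the 23. Both strands were searched. A match of letters is a description of the window and not a binding site.

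Pparg and Cebpa, which follow Cebpb, were at least 2-fold higher on day 2 and on each later day, in 6 of 7 scalings. Pparg, the receptor that directs fat cell formation, measured 142 units on day 0 and 289 on day 2, 3.01-fold higher, with levels of 6.16, 7.75, 8.03, 8.38 and 8.37 on days 0, 2, 4, 6 and 8. Cebpa, which maintains the adipocyte state with Pparg, measured 141 and 334 units, 3.42-fold higher, with levels of 6.56, 8.33, 8.05, 8.15 and 8.07. Cebpa thus stood at about the same level on day 2 as on the later days, 0.25 above their mean, with a range of -1.49 to 0.26 over 7 scalings. Rxra, the partner of Pparg on DNA, was 2.64-fold higher on day 2 (at least 2-fold in 5 of 8 scalings) and at 0.72, 0.44 and -0.36 on the later days. Day 2 minus the later mean of Rxra ranged from -0.31 to 1.23 over 7 scalings. Of the late adipogenic factors compared, 3 of 8 were at least 2-fold higher and 1, Ppargc1a, lower. The early factors had 2 of 5 higher, Cebpb and Srebf1, and 1 lower, Nr3c1. For comparison, 16.7% of all 210 compared genes were called in each direction. Srebf1, which drives lipid synthesis genes, was 3.58-fold higher on day 2 and at 0.84, 0.84 and 0.59 on days 4, 6 and 8. In units Srebf1 was at 94, 218, 273, 282 and 284 on days 0, 2, 4, 6 and 8. Its short-lived course was present in 4 of 7 scalings, with day 2 minus the later mean between -0.36 and 1.12.

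The labels call the day 2 cells adipocytes. Of the 16 adipocyte markers on the array, 6 were above 10 units on day 0, 11 on day 2 and all 16 on day 8, and their summed intensity was 2553, 5167 and 90308 units on these days. Units are unscaled. All 321 genes summed to 119555, 71823 and 291511 units, with 204, 200 and 235 genes above 10 units. On day 2, 10 of the 11 compared markers were at least 2-fold higher and none was lower. Their median was 2.04, against -0.06 over all 210 compared genes, of which 16.7% were higher and 16.7% lower. Since 5 of the 10 were not measured on day 0, they could be called in 1 direction only. The 10 markers stayed at least 2-fold above day 0 on days 4, 6 and 8.

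Lipe, hormone-sensitive lipase, measured 33 units on day 0 and 344 on day 2, 13.8-fold higher, with levels of 4.26, 8.05, 8.85, 9.08 and 9.33 on days 0, 2, 4, 6 and 8. Pnpla2, the adipose triglyceride lipase gene, measured 104 and 398 units, 5.82-fold higher, and was at 3.66, 3.92 and 3.73 above day 0 on days 4, 6 and 8. Plin1, which coats the lipid droplet, was at 0 units on day 0 and 63 on day 2, at least 4.46-fold higher. All 3 compared members of the lipolysis list were at least 2-fold higher, against 16.7% of all 210 compared genes. Since Plin1 was not measured on day 0, it could be called higher only. Adrb3, the beta-3 adrenergic receptor gene, was at 0 and 1 unit on days 0 and 2 and at 57 and 221 on days 6 and 8.

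Fatty acid handling genes were split. Acsl1, which activates long-chain fatty acids, measured 54 units on day 0 and 500 on day 2, 11.3-fold higher, and was 4.34 log2 units above day 0 on day 8. Fabp4, the fatty acid binding protein of adipocytes, measured 131 and 555 units, 7.37-fold higher, with levels of 6.39, 9.27, 12.25, 13.09 and 12.94, so most of its increase came after day 2. Cd36, a fatty acid transporter, was at 6 and 27 units, at least 2.33-fold higher on day 2, and at least 5.10 log2 units higher on day 4. Fabp5, the epidermal form of the binding protein, was 3.24-fold higher. The transporter gene Slc27a1 was below day 0 at -1.04, and Lpl, lipoprotein lipase, stayed within 2-fold at 0.84. The list had 4 higher and 2 lower members of 10 compared and a median of 0.52, or 0.21 for the 9 measured on both arrays. The share of all 210 compared genes was 16.7% in each direction. Cd36, not measured on day 0, could be called higher only.

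Of the 16 adipokine genes on the array 12 were compared, and 6 were at least 2-fold higher, 1 (Ccl2) was lower and 5 were within 2-fold. Cfd, Adipoq, Retn and Hp passed the limit on day 2 and not on day 0, so they could be called higher only. Among the 8 members measured on both arrays, Agt and C3 were the higher ones, and the median was 0.35. Over all 210 compared genes, 16.7% were higher and 16.7% lower. Cfd, the complement protease adipsin, was at 0 units on day 0 and 106 on day 2, at least 9.49-fold higher. Its level was 6.63 on day 2, against 10.26, 11.63 and 11.42 on days 4, 6 and 8. Adipoq, the adiponectin gene, was at 0 and 49 units, at least 4.11-fold higher, with a level of 5.43 on day 2 and 10.67 on day 8. Retn, resistin, was at 55 units on day 2 and Hp, haptoglobin, at 47, at least 3.93-fold and 4.00-fold higher. Leptin (Lep) was at 0 units on both arrays. Retn had a level of 5.36 on day 2 and 9.04 on day 4, and Hp one of 5.39 and 8.37.

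C3, the central complement component, was well measured before induction. It was at 688 units on day 0 and 2113 on day 2, 3.27-fold higher, with levels of 9.08, 10.79, 11.63, 11.85 and 10.79 on days 0, 2, 4, 6 and 8. All 4 compared complement and acute phase genes (C3, Cfd, Hp and Agt) were at least 2-fold higher, against 16.7% of all 210 compared genes. Cfd and Hp, not measured on day 0, could be called in 1 direction only. The C3 promoter is shown because it was the only one among the 28 higher genes with the C/EBP letters TTGCGNAA on either strand (in capitals), 45 bases before the start site. These letters were in 0.798% of all promoters.
C3, chr17:57228087-57228386, - strand: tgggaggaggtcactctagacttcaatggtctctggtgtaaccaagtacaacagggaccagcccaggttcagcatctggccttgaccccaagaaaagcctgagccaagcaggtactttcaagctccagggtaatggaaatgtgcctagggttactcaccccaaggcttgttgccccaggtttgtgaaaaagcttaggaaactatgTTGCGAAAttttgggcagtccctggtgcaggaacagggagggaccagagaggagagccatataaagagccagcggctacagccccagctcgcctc

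Pcx, pyruvate carboxylase, which feeds oxaloacetate to fat synthesis, had the second largest increase among genes measured on both arrays. It measured 129 units on day 0 and 1501 on day 2, 15.9-fold higher, with levels of 5.91, 9.90, 9.46, 9.56 and 9.90 on days 0, 2, 4, 6 and 8. The day 2 level equalled that of day 8 on this scale, but in units day 8 stood at 4148, and day 2 minus the mean of the later days ranged from -1.24 to 0.29 over 7 scalings. The other compared members of its list were Gk, glycerol kinase, at 0.68 and Pck2, a mitochondrial PEP carboxykinase, at -0.86. In fatty acid synthesis 1 of 6 compared genes was at least 2-fold higher, Srebf1, near the 16.7% of all 210 compared genes. G6pdx, which supplies NADPH, was at 0.98 and Acly, ATP citrate lyase, at 0.75.

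Of the 35 genes higher on day 2, 16 were at least 2-fold above day 0 on days 4, 6 and 8 as well, 12 were within 2-fold of day 0 on all of these days, 4 were at least 2-fold below day 0 on a later day and 3 followed none of these courses. The 16 lasting genes were Acsl1, Adipoq, Agt, C3, Cd36, Cebpa, Cfd, Fabp4, Hp, Hsd11b1, Lipe, Pcx, Plin1, Pnpla2, Pparg and Retn, and 12 of them were farther above day 0 on day 8 than on day 2. The 12 short-lived ones were Adipor2, Angptl4, Cebpb, Irs2, Pip, Ppp1r10, Ppp1r1b, Rgs2, Rxra, Srebf1, Stat3 and Ucp2. Dusp1, Foxc2, Tnfrsf1b and Vdr turned below day 0 later. The lasting course held for 12 of the 16 genes under each of the 7 scalings that include the later days. Of these, Adipoq, Cfd, Hp, Hsd11b1, Plin1 and Retn were not measured on day 0, so they could be called higher only. None of the 12 short-lived genes kept the short-lived course under each of the 7 scalings. In all, 4 increases had it when arrays were scaled to the control genes, 0 in the deposited table and 1 in unscaled intensity. All of these differences share the day 0 array.

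Among the short-lived increases, Ucp2, a carrier of the inner mitochondrial membrane, measured 346 units on day 0 and 953 on day 2, 4.21-fold higher. Its level was 7.64 on day 0, 9.71 on day 2 and 7.78, 7.40 and 6.79 on days 4, 6 and 8. Day 2 stood above the mean of the later days by 2.39 log2 units, and by 0.82 to 2.61 over the 7 scalings. Vdr, the vitamin D receptor gene, measured 85 and 306 units, 5.05-fold higher, with levels of 5.50, 7.83, 6.81, 5.31 and 3.51, so it passed from above to below its day 0 level. For 6 of the 12 genes (Cebpb, Irs2, Pip, Ppp1r1b, Rgs2 and Ucp2) day 2 exceeded the later mean under each of the 7 scalings, for Cebpb by 0.03 to 2.29 and for Rgs2 by 0.08 to 1.56. The 12 were chosen for a high day 2 and a later return, so this order is in part set by the choice.

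Stat3, a transcription factor of cytokine signalling, was 2.59-fold higher on day 2 and at -0.24, -0.38 and -0.43 on days 4, 6 and 8. On the deposited values it was at -0.10 on day 2. Adipor2, an adiponectin receptor gene, was 3.23-fold higher and stayed at 0.67 to 0.88 afterwards. In units Adipor2 was at 191, 459, 648, 648 and 931 on days 0, 2, 4, 6 and 8. Its short-lived course was present in 4 of 7 scalings, with day 2 minus the later mean between -0.67 and 1.05. Irs2 was at 219 and 363 units and 2.31-fold higher on day 2, then at -0.46, -0.71 and -0.87. Tnfrsf1b, a TNF receptor gene, was 2.25-fold higher and Foxc2, a forkhead factor, 2.19-fold, and both were more than 2-fold below day 0 on days 6 and 8. These calls depended on the scaling: Tnfrsf1b was at least 2-fold higher on day 2 in 5 of 8 scalings (lowest 0.11) and Foxc2 in 4 of 8 (lowest -0.19), and the later turn below day 0 was present in 2 and 3 of 7. Agtr2, the angiotensin II type 2 receptor gene, was measured on day 2 and not on day 0. It was at least 6.94-fold higher, with levels of 6.18, 4.43, 4.66 and 4.01 on days 2, 4, 6 and 8. In units Agtr2 was at 77, 77, 99 and 87 on these days, and day 2 minus the later mean ranged from -0.18 to 1.82 over 7 scalings, so the order of the days depended on the scaling.

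**Figure D2:**
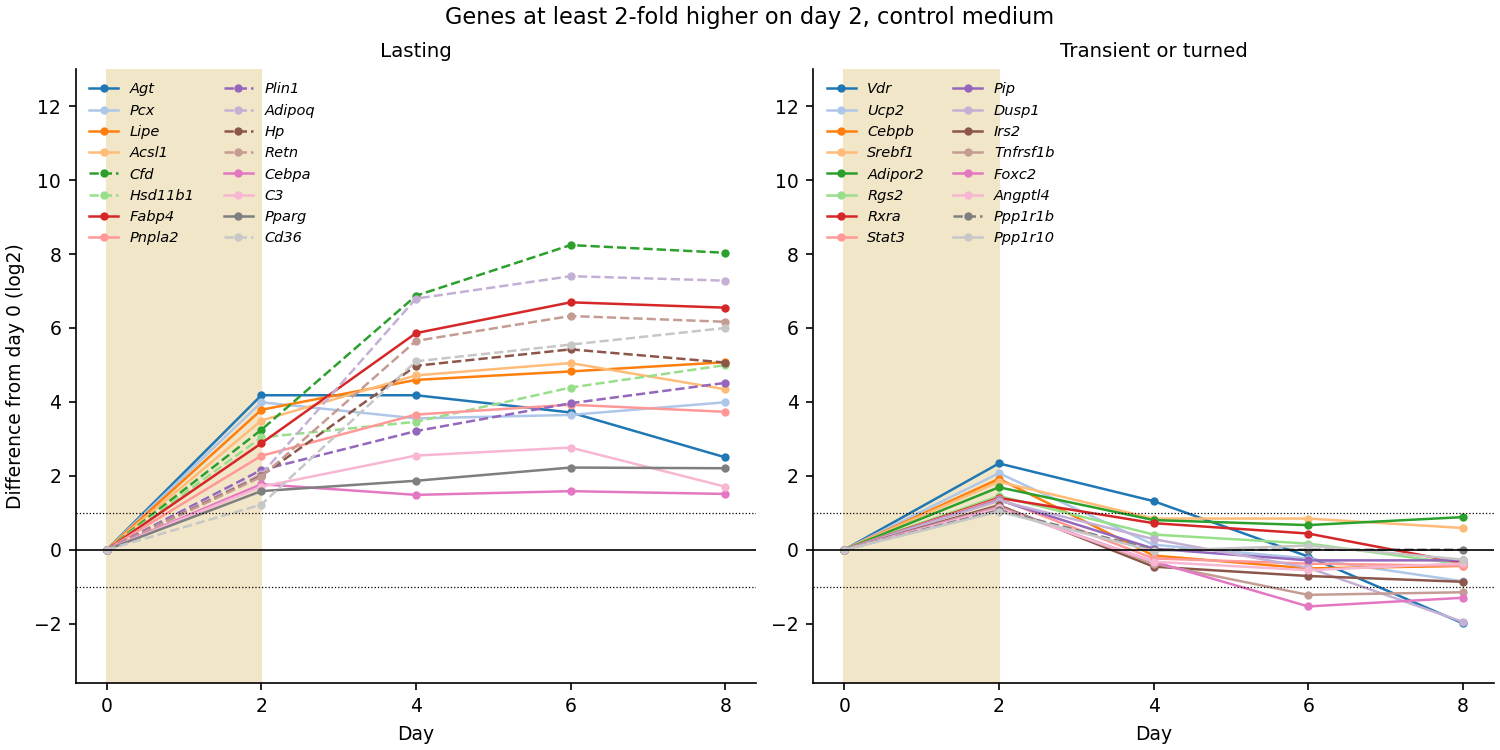
Difference from day 0 (log2, vertical axis) by day in control medium for the genes at least 2-fold higher on day 2, with 1 array per day. The left panel holds the 16 lasting genes and the right panel the 16 genes that were later within 2-fold of day 0 or below it; dashed lines are genes not measured on day 0, the shaded days are those with inducers and the dotted lines mark 2-fold. Cfd, Adipoq and Fabp4 climb after day 2, while Cebpb and Ucp2 return to about 0.

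Among the largest decreases were the matrix genes Thbs1, Thbs2 and Lox and the preadipocyte factor Sfrp2, with Apod and Trib3 beside them. Thbs1, the matricellular protein thrombospondin-1, measured 2159 units on day 0 and 89 on day 2, 26.1-fold lower, with levels of 10.79, 6.08, 5.62, 7.15 and 8.09 on days 0, 2, 4, 6 and 8. Thbs2 measured 1937 and 136 units, 11.2-fold lower, with levels of 10.18, 6.70, 7.72, 7.83 and 7.67. Lox, which cross-links collagen, measured 3393 and 455 units, 6.72-fold lower. It was at -1.49, -2.16 and -2.63 on days 4, 6 and 8, a lasting course present in 3 of 7 scalings, and in units it was at 3463 on day 4. Thbs1 and Thbs2 stayed at least 2-fold below day 0 under all 7. Dpt, a matrix protein gene, was 2.25-fold lower, while Dcn (decorin) at -0.96 and Sparc at -0.41 stayed within 2-fold. In the matrix list 4 of 7 compared genes were at least 2-fold lower and none was higher, against 16.7% of all 210 compared genes in each direction. The list median was -1.17, against -0.06 over all compared genes.

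Preadipocyte factors and inhibitors of adipogenesis had 4 of 10 compared members lower, 1 higher (Foxc2) and a median of -0.84. Of all 210 compared genes, 16.7% were lower and 16.7% higher. Sfrp2, a secreted modulator of Wnt signalling, was at 322 units on day 0 and 11 on day 2, at least 17.2-fold lower. Its level was at the floor on days 2 and 4 and at 3.70 and 4.31 on days 6 and 8. In units Sfrp2 was at 44, 68 and 107 on days 4, 6 and 8. Gata2, a factor that holds cells in the preadipocyte state, was at 53 and 8 units, at least 3.70-fold lower. Its level was at the floor on each later day, with 20, 26 and 39 units on days 4, 6 and 8. Klf2, a repressor of Pparg, was at 104 and 18 units, 3.55-fold lower. Dlk1, the preadipocyte factor Pref-1, measured 14940 units on day 0 and 5457 on day 2, 2.04-fold lower. Its level stayed between 11.85 and 12.25 afterwards, but in units it was at 11425, 12976 and 15564 on days 4, 6 and 8. The day 2 decrease of Dlk1 passed 2-fold in 5 of 8 scalings, and its lasting course was present in 4 of 7. Sfrp2 and Gata2 thus lay at the floor on day 2, and Dlk1 did not. Spots of Sfrp2 and Gata2 above 10 units were also set to the floor, so a level there is not an absence of signal.

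The vascular growth factors lay on both sides of day 0. Vegfd was 4.56-fold and Vegfb 4.13-fold lower on day 2, Vegfc was at -0.98 and Vegfa at 0.77. Vegfd remained at -1.44, -2.14 and -3.13 on days 4, 6 and 8, whereas Vegfb climbed back to -0.66 on day 8. The list of vascular genes shares Thbs1 and Thbs2 with the matrix list. In it 4 of 7 compared members were lower and 1, Angptl4, was higher, with a median of -2.05. The share of all 210 compared genes was 16.7% in each direction.

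At the entry of the insulin pathway, Irs1, the main insulin receptor substrate, measured 123 units on day 0 and 15 on day 2, 4.97-fold lower, with levels of 6.30, 3.98, 4.61, 5.36 and 5.06 on days 0, 2, 4, 6 and 8. Insr, the insulin receptor gene, was at 43 and 13 units, 2.39-fold lower, and Cap1, an actin-binding protein, 2.04-fold lower. Irs2 was the 1 compared member of this list that was at least 2-fold higher, in 5 of 8 scalings, with a lowest value of 0.03, while Irs1 was lower in all 8. The list had 3 lower and 1 higher of 8 compared and a median of -0.62. Downstream, 4 of 13 genes of the PI3K, Akt, mTOR and GSK3 list were lower and none higher, with a median of -0.34. For both lists, the share over all 210 compared genes was 16.7% in each direction. Trib3, Pi4k2b and Gsk3b were among the lower ones. Rhoq, a small GTPase of insulin-stimulated glucose transport, was 4.18-fold lower on day 2 and at -0.97, -0.68 and -0.22 afterwards.

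Trib3, a stress-induced pseudokinase that binds Akt, and Hmox1, heme oxygenase, were the compared members of the stress list, and both were lower. Trib3 measured 309 units on day 0 and 36 on day 2, 6.37-fold lower, and then 1.52 log2 units above day 0 on day 8. This turn was present under each of the 7 scalings. Hmox1 measured 1115 and 268 units, 3.05-fold lower, and was at 0.63 on day 8. Of the sterol genes, Insig1, which holds the SREBP complex in the endoplasmic reticulum, was 3.51-fold lower, and at 0.36, 0.82 and 0.48 on days 4, 6 and 8. Srebf1 was higher on the same array. The cholesterol and SREBP list as a whole had 2 higher and 3 lower of 11 compared genes and a median of -0.30. Of all 210 compared genes, 16.7% were higher and 16.7% lower.

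Csf1, the macrophage colony-stimulating factor gene, was 4.63-fold lower on day 2 at 419 and 62 units, and Ccl2, a monocyte chemoattractant, 3.57-fold lower at 449 and 92 units. Ccl2 stayed at -2.04, -2.08 and -1.73 on days 4, 6 and 8, whereas Csf1 was back within 2-fold on day 8. B2m, the light chain of MHC class I, measured 12855 and 2338 units, 4.21-fold lower, and was at -0.42 on day 8. Among the chemokines, cytokines and NF-kB genes 2 of 10 compared were lower and 1, Tnfrsf1b, higher, with a median of -0.20. These shares lie near the 16.7% of all 210 compared genes in each direction. Il6 and Tnf were not measured on either array. Ccnd1, cyclin D1, was the one member of the 4 compared cell cycle genes past 2-fold. Ccnd1 measured 1055 and 333 units, 2.21-fold lower, with levels of 9.46, 8.32, 8.45, 8.11 and 8.11. In units it was at 1056, 943 and 1054 on days 4, 6 and 8, and the lasting course was present in 4 of 7 scalings. Cdkn1a (p21) was at -0.54, E2f4 at -0.38 and E2f5 at -0.15.

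Of the 35 genes lower on day 2, 13 were at least 2-fold below day 0 on days 4, 6 and 8 too, 8 were within 2-fold on all of these days, 2 turned at least 2-fold above day 0 and 12 followed none of these courses. Among the 13 lasting ones were Apod, Cap1, Ccl2, Ccnd1, Dlk1, Gata2, Lox, Map2k6, Sfrp2, Thbs1, Thbs2 and Vegfd. Sfrp2, Thbs1 and Thbs2 had the lasting course under each of the 7 scalings, while Dlk1 and Ccnd1 had it in 4. Sfrp2, not measured on day 2, could be called lower only. Among the 8 short-lived ones were Crebbp, Insig1, Insr, Nr3c1, Rhoq and Slc27a1, and Trib3 and Angptl6 turned. None of the 8 kept its course under each scaling. All 8 were lower on day 2 than the mean of the later days under each scaling, with Crebbp at -0.03 at the nearest. They were chosen for a low day 2 and a later return, so this order was largely set by the choice and is not separate support. In the deposited values, 57 decreases lasted and 26 were short-lived.

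**Figure D3:**
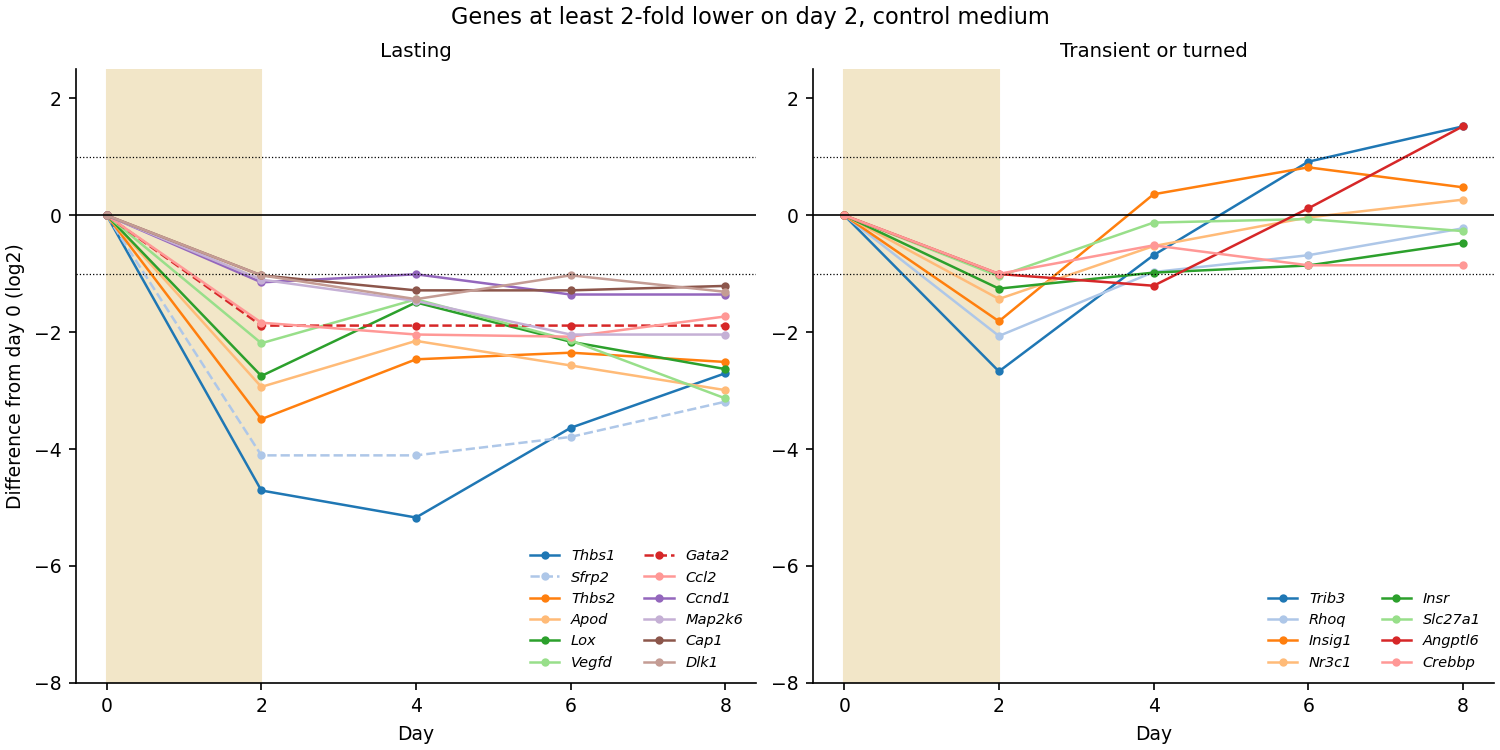
Difference from day 0 (log2, vertical axis) by day in control medium for the genes at least 2-fold lower on day 2, with 1 array per day. The left panel holds 12 of the 13 lasting genes and the right panel 8 of the 10 genes that were later within 2-fold of day 0 or above it; dashed lines are genes measured on day 0 but not on day 2, the shaded days are those with inducers and the dotted lines mark 2-fold. Thbs1 is lowest on days 2 and 4, and Trib3 passes from -2.67 on day 2 to 1.52 on day 8.

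In several gene groups few members were past 2-fold on day 2. None of the 7 compared glucose transport and glycolysis genes was past 2-fold, though Pkm was at 0.96 and Hk2, hexokinase, at 0.80; Slc2a4, the insulin-regulated glucose transporter gene, was measured on neither array. In fatty acid oxidation 1 of 8 was higher, Ucp2, with Acadm at 0.77 and Cpt1a at -0.73. The MAP kinase pathway had 2 of 11 lower, with Map2k6 at -1.10, and none higher. The AMPK pathway had Adipor2 higher and Ppargc1a lower among 9. These shares of 0 to 2 genes per list lie near or below the 16.7% of all compared genes in each direction.

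**Figure D4:**
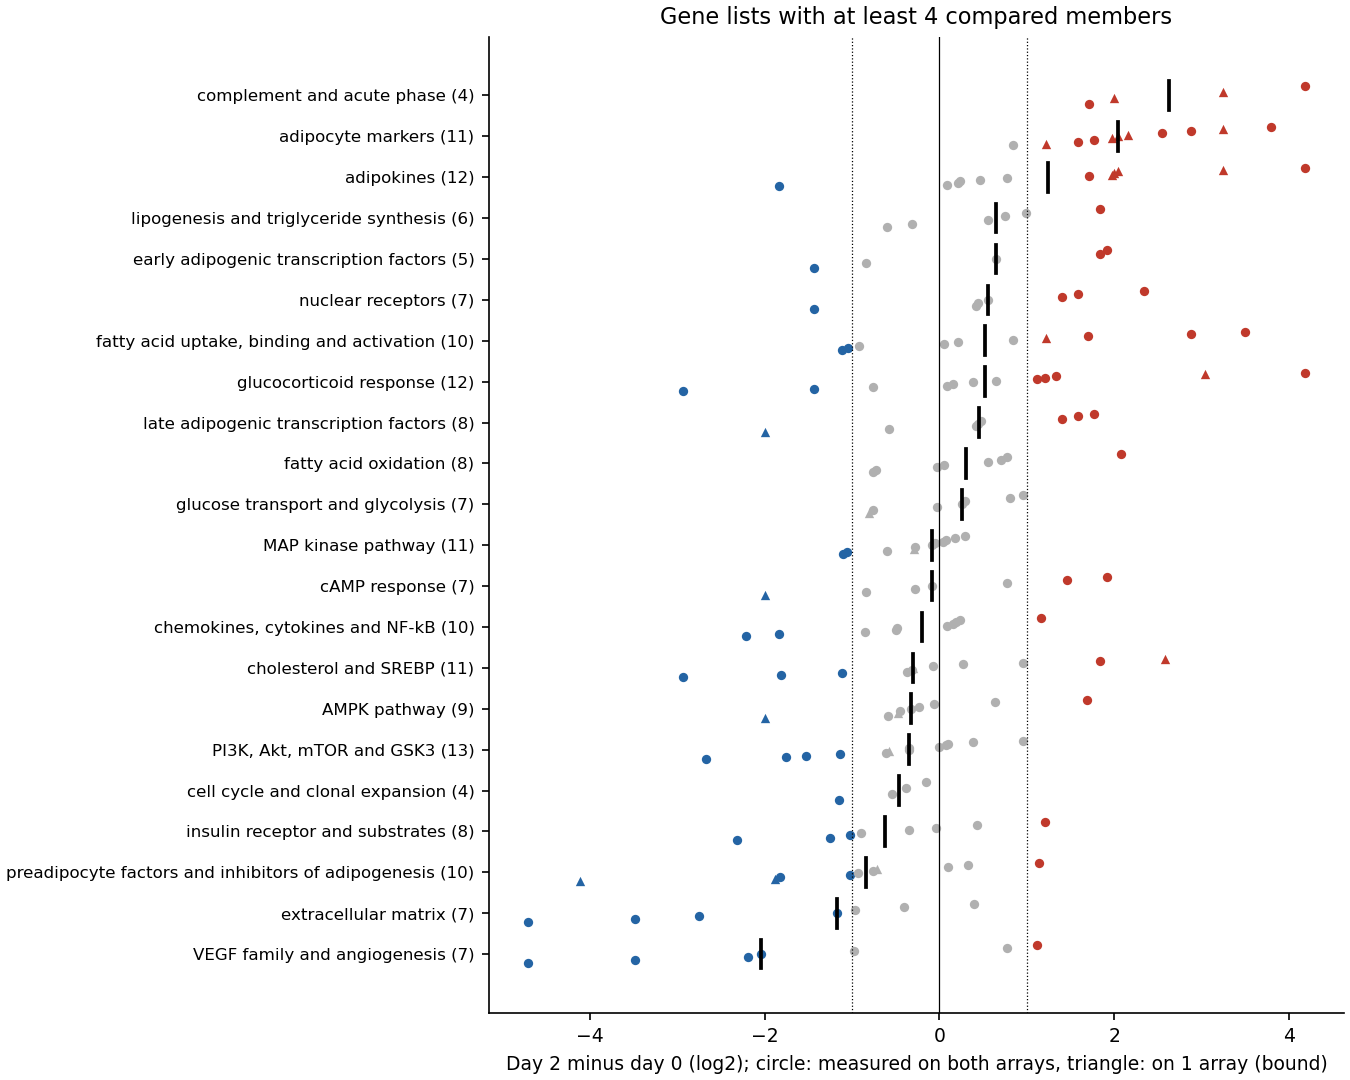
Day 2 minus day 0 difference (log2, horizontal axis) of each compared member of the gene lists with at least 4 compared members, whose number is in parentheses. Circles are genes measured on both arrays, triangles genes measured on 1 array, black bars list medians and dotted lines 2-fold; lists share members. Complement and acute phase genes and adipocyte markers lie at the top and matrix and vascular genes at the bottom.

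Other genes passed 2-fold only on the days after methylisobutylxanthine and dexamethasone had been removed. At least 2-fold higher on days 4, 6 and 8 but not on day 2 were 8 genes: Abca1, Ctla4, Gpd1, Hk2, Lpl, Nampt, Pdhb and Slc2a4. Gpd1, the glycerol 3-phosphate dehydrogenase that supplies the backbone of triglyceride, was at 10 units on day 2 and 1368 on day 4. Lpl had levels of 10.36, 11.20, 12.67, 13.28 and 13.28 on days 0, 2, 4, 6 and 8, so its day 2 level lay between day 0 and day 4. At least 2-fold lower on all 3 later days but not on day 2 were 9 genes, Cpt1a, the gate of mitochondrial fatty acid import, among them at -0.73 on day 2 and -2.12 on day 6.

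Markers of other cell types gave little or no signal. The 9 hepatocyte markers on the array summed to 2 units on day 0 and 7 on day 2, the 2 muscle markers to 8 and 10 and the 3 endothelial markers to 23 and 12. Of these, Kdr on day 0 was the 1 spot above 10 units, at 13, and lay at the floor. No macrophage marker was on the array. Ucp1, the brown fat uncoupling protein gene, was not measured on days 0 or 2.

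The day 2 culture with 0.5% chickpea extract received the same inducers, and its difference is taken from the same day 0 array, so the values are given side by side only. Cebpb was at 2.13 there against 1.92 in control medium, Cebpa at 1.59 against 1.77, Pnpla2 at 2.64 against 2.54, Fabp4 at 3.26 against 2.88 and Thbs1 at -3.88 against -4.71. Agt was at 0.22 against 4.18, Pcx at 1.34 against 3.99, Ucp2 at 0.17 against 2.07 and Rgs2 at -0.73 against 1.45.

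**Figure D5:**
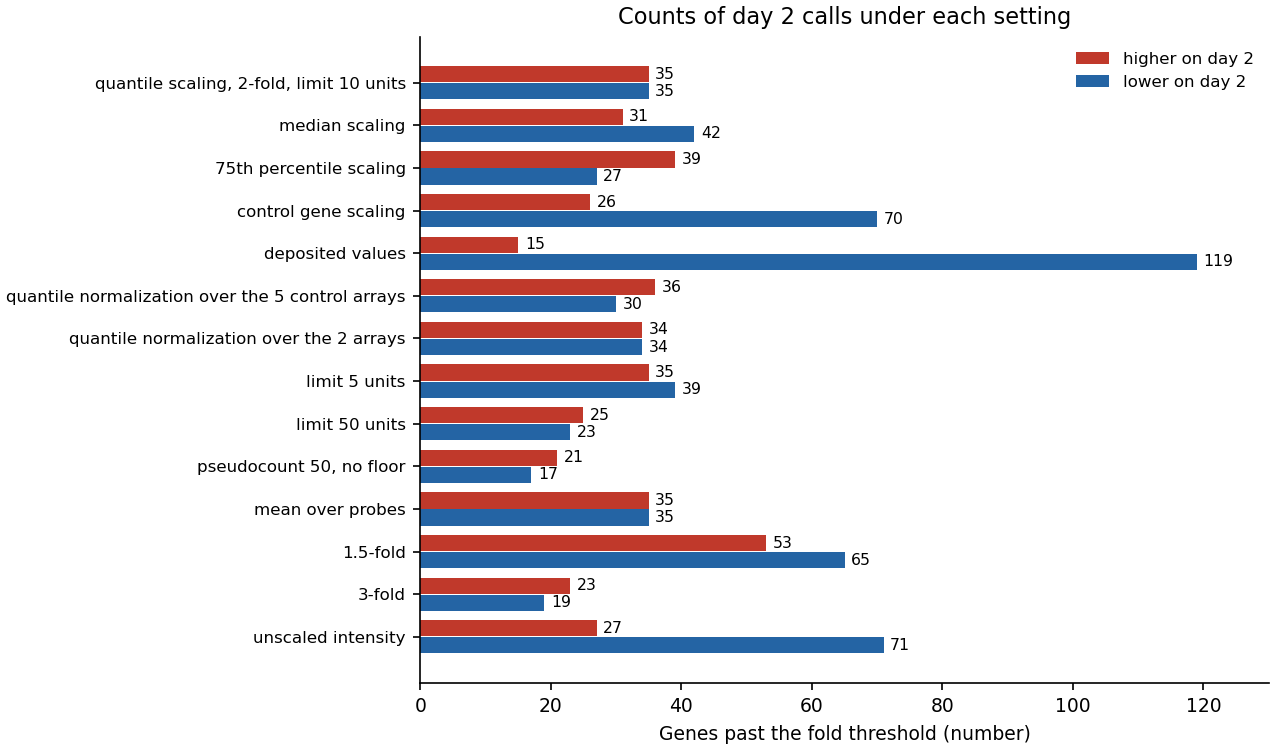
Number of genes past the fold threshold (horizontal axis) on day 2 against day 0 in control medium under each processing setting, higher genes in red and lower genes in blue. Counts run from 15 to 53 for higher and from 17 to 119 for lower genes, with lower genes most numerous in the deposited table.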

How the data were processed

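Dye-labelled cDNA was hybridised to 1 array per culture and scanned with GenePix Pro 6.1.0.4 at 532 nm, per the file headers. The values deposited by the authors are linear intensity; their steps are not described in the labels. From the values, each of the table's 354 rows equals 1 spot's background-subtracted intensity plus 2 or 3 units, scaled so that the Gapdh spots of a set average 10000 (relative tolerance 1e-06). Rows were named through that match, and units rest on it. Scanner wells have names that match no sample label, so each was tied to its sample by the same match, and 3 unnamed wells were not used. Of 331 array names, 316 were current symbols and 13 synonyms (RefSeq, GRCm38.p6). Log2 intensity was averaged over a probe's spots, the brightest probe of a gene was kept, and arrays were quantile normalized (numpy 2.4.6, pandas 2.3.3). The floor is the highest, over arrays, of the lowest level above 10 units. Members, lists and the limit were chosen with earlier results of these data known. Named were the 12 largest increases and decreases measured on both arrays, the 8 largest bounds each way, members of 6 lists and the 3 largest of each other list. Genes named outside that rule (by course, beside the threshold, late genes, single members of lists) were chosen after their values were seen. Alternatives covered scaling, limit, floor, probe averaging and fold. Some genes on the array are not reported here by name, and they stay in the counts and medians.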

Additional observations from a re-analysis of the deposited data

Results flagged for a closer look

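Among the genes past 2-fold on both day 2 arrays, 5 shown here lay on opposite sides of day 0 in the 2 media, each medium with 1 array and both differences taken from 1 day 0 array, which is why they are given. The difference between the media was not tested. Trib3 was at -2.67 in control and 1.97 in chickpea medium, Ppargc1a at -2.00 or lower and 1.42, Hmox1 at -1.61 and 1.23, Angptl6 at -1.0 and 2.94, and C3 at 1.71 and -1.53 (log2, day 2 minus day 0).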

How the results depend on the processing

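Counts refer to day 2 against day 0 in control medium, in the order higher, lower. At 1.5-fold they were 53 and 65 and at 3-fold 23 and 19, and with log2(value + 50) and no floor 21 and 17. The deposited values gave 15 and 119. Lower genes numbered 70 with control gene scaling, 71 in unscaled intensity (added after seeing the data) and 23 at a limit of 50 units. Other settings stayed within 1.5 times of 35. Lasting decreases numbered 40 at 1.5-fold, 6 at 3-fold, 57 in the deposited values, 8 with the pseudocount and 3 unscaled. Short-lived decreases numbered 5 at 3-fold, with 75th percentile scaling and at 50 units, 3 with the pseudocount, 31 with control gene scaling, 26 in the deposited values and 40 unscaled. Short-lived increases numbered 5 at 3-fold, 4 with control gene scaling, 0 in the deposited values and 1 unscaled. Lasting increases stayed within 1.5 times of 16 wherever computed; quantile normalization of 2 arrays holds no later day. Of 1001 recomputed values of named genes, 3 were counted as reversed, all in the deposited values. These were Dusp1 at -0.083, Angptl4 at -0.34 and Stat3 at -0.10. The count covers genes past 2-fold here and does not show that other directions hold. Values within 2-fold here could change sign uncounted, as the median difference was -1.205 in the deposited values. Foxc2 and Ppp1r10, outside the naming rule, also changed sign, with lowest values of -0.19 and -0.36 over the scalings. The cause was not tested. Dim spots limit genes near 10 units. No paired analysis was possible because there was 1 array per group.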
